A study of Mus musculus with 6 samples.

Results

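Circular RNAs arise when the splicing machinery joins a downstream splice donor back to an upstream acceptor, and this back-splicing is helped or hindered by proteins that bind the introns on either side. The 8 genes described here encode such proteins: Qk, Mbnl1, Mbnl2, Ilf2 and Hnrnpl, known to promote circle formation or to bind RNA that forms circles, and Adar, Adarb1 and Dhx9, which edit or unwind paired RNA. They were taken by gene name from a table of 54532 genes, and all 8 were found and passed the filter on low values. Their RNA was measured in N2a cells in which the circular RNA of Rtn4, circRtn4, had been targeted with an siRNA.

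N2a, or Neuro2A, is a line derived from a mouse neuroblastoma, given in the labels as strain C57BL/6. The study's methods name C57BL/6 for the embryos behind its primary neurons and give no strain for N2a. RNA was sequenced from 3 libraries of cells given the control siRNA, si-NC, and from 3 libraries of cells given si-circRtn4. The labels name MEM with serum as the growth medium and give no siRNA dose, time or differentiation step, although the study's general methods describe differentiation of N2a cells with retinoic acid. The labels do not say whether the libraries came from separate cultures, so the p-values measure the spread between these libraries, which may be technical. The authors deposited FPKM values, fragments scaled for gene length and library depth, and between 13541198 and 15122063 reads on genes were recovered per library.

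The neuroblastoma transcription factors Phox2a and Hand2 and the neuronal tubulin Tubb3 were expressed in every library, whereas the neurofilament gene Nefl was at 0 in all 6. The summed level of 11 neuroblastoma and neuronal markers ran from 981 to 1092 FPKM in si-NC and from 711 to 989.9 FPKM in si-circRtn4. The summed level of 10 markers of glia, leukocytes, fibroblasts and endothelium ran from 5.48 to 6.77 FPKM in si-NC and from 4.24 to 6.54 FPKM in si-circRtn4, with Aqp4 at 0 in all 6 libraries. Of the first list 8 genes were tested and 2 were called, both lower in si-circRtn4, against 9.19% of all genes tested called in either direction. The limma unadjusted p was under 0.05 for 4 of the 8 (1 higher and 3 lower), against 25.9% of all genes tested. Dbh, an enzyme of noradrenaline synthesis, was at 5.99 and 0.602 FPKM (limma adjusted p = 0.00352). Its log2 fold change was -2.07 after 1 FPKM was added to each value, and -3.18 to -1.81 over the alternatives. Phox2a was at 212 and 147 FPKM (log2 fold change -0.53, limma adjusted p = 0.0210, and 0.00342 to 0.0769 over the alternatives). Mycn, the transcription factor gene often amplified in neuroblastoma, was at 13.999 and 21.99 FPKM (log2 fold change 0.60, limma adjusted p = 0.0527). With replicate number as a block Mycn was called as higher (limma adjusted p = 0.00680), as were 9.29% of all genes tested. It was named after its value had been seen. Of the second only Mbp, a myelin gene, was tested (4.12 and 3.49 FPKM, log2 fold change -0.20, limma adjusted p = 0.433). Their part in the results below was not tested, and in bulk RNA a smaller share of cells of a type and less RNA per cell cannot be told apart. Chd5, the chromatin remodeler gene the study followed, was at 11.8, 9.83 and 9.52 FPKM in si-NC and at 3.99, 3.53 and 3.97 FPKM in si-circRtn4. Rtn4, the gene of the circle, had a log2 fold change of -0.22 (standard error, SE, 0.10, limma adjusted p = 0.216). It was lower in 3 of 3 pairs of libraries with the same replicate number, as were 28.3% of all genes tested. With that number as a block Rtn4 was called as lower (95% interval -0.36 to -0.085, limma adjusted p = 0.0447), as were 9.75% of all genes tested. FPKM of a gene does not separate its linear from its circular RNA, so neither the level of circRtn4 nor that of any other circle can be read from these values. By qRT-PCR in N2a cells, the study reported that the siRNA lowered circRtn4 and that linear Rtn4 did not change significantly.

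QK (quaking) is a KH-domain protein that binds short motifs in introns and, when they flank an exon, brings its ends together. The muscleblind proteins MBNL1 and MBNL2 are zinc finger splicing factors, and the fly protein is known for making a circle from its own gene. ADAR and ADARB1 convert adenosine to inosine in paired RNA, which weakens the pairing of inverted repeats beside a circle's exons, and DHX9 is a helicase that unwinds such repeats. ILF2 acts within complexes that bind paired RNA, and HNRNPL binds CA-rich sequence near splice sites.

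The members' 3′ UTRs were searched for the seeds of the small RNAs of this experiment, because a transfected siRNA can also pair with mRNAs through its seed. The sequences below are miR-24-3p, the miRNA that the study links to circRtn4 (from RefSeq, GRCm38.p6, with loci on chromosomes 8 and 13), the strand the study lists for si-circRtn4, and the guide taken as its reverse complement. Capitals mark the seed, bases 2 to 8.
miR-24-3p: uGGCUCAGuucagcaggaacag
si-circRtn4, listed strand: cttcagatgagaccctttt
si-circRtn4, guide: aAAAGGGUcucaucugaag

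The longest annotated 3′ UTR of each member was between 311 bases (Dhx9) and 7014 bases (Qk) long, with a median of 2509.5 bases against 1169 for the 10694 genes tested that have one. None of the 8 held the 7-base site of miR-24-3p (CTGAGCC), which 19.6% of those genes hold. The 7-base site of the guide (ACCCTTT), held by 12.5% of those genes, was found once in Qk and once in Ilf2. The site of Qk lies at chr17:10208576-10208582 on the minus strand and is followed by A, and that of Ilf2 lies at chr3:90488337-90488343 on the plus strand and is not. Both are shown in GRCm38 with the site in capitals.
Qk: agaacaaagaaACCCTTTatttcattaaa
Ilf2: ccatgtcctgaACCCTTTgaaaccataat

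Levels of the members differed more than 10-fold between genes. In FPKM, Hnrnpl was highest in si-NC at 66.7 ± 4.47 (SD, n = 3), followed by Dhx9 at 38.5 ± 7.74 and Ilf2 at 16.1 ± 1.69 FPKM. Adar was at 11.3 ± 0.647, Mbnl1 at 10.3 ± 0.606, Mbnl2 at 7.85 ± 1.05, Qk at 7.80 ± 0.373 and Adarb1 at 5.23 ± 0.428 FPKM (SD, n = 3 each). Of the neighbours in this order, Mbnl2 and Qk overlapped in their si-NC libraries, and Adar and Mbnl1 were separated by less than their spread, at 10.8 for the lowest Adar and 10.7 FPKM for the highest Mbnl1 library.

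The gene length behind these FPKM values was the union of all exons annotated for the gene, which for Ilf2 is 8580 bases against 2027 bases for its principal coding transcript. Divided by the length of the principal coding transcript, the si-NC level of Ilf2 was 68.2 ± 7.17 on the same scale (SD, n = 3), and its range overlapped that of Dhx9 (81.0 ± 16.3). On this scale Mbnl1 (34.2 ± 2.01) was above Adar (24.4 ± 1.40), and the ranges of Adar and Mbnl2 (20.7 ± 2.76) overlapped. Hnrnpl remained the highest at 148 and Qk (12.997) and Adarb1 (9.01) the lowest. Mbnl2 also has a shorter principal transcript of 2334 bases, which would give 40.3. Adar has a longer coding transcript of 5909 bases, which is not its principal one and was not used. Reads on all annotated exons were kept, so the levels on this scale may be too high. The order of the middle members therefore depended on the length used, whereas a fold change between the groups has the same length on both sides.

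**Figure D1:**
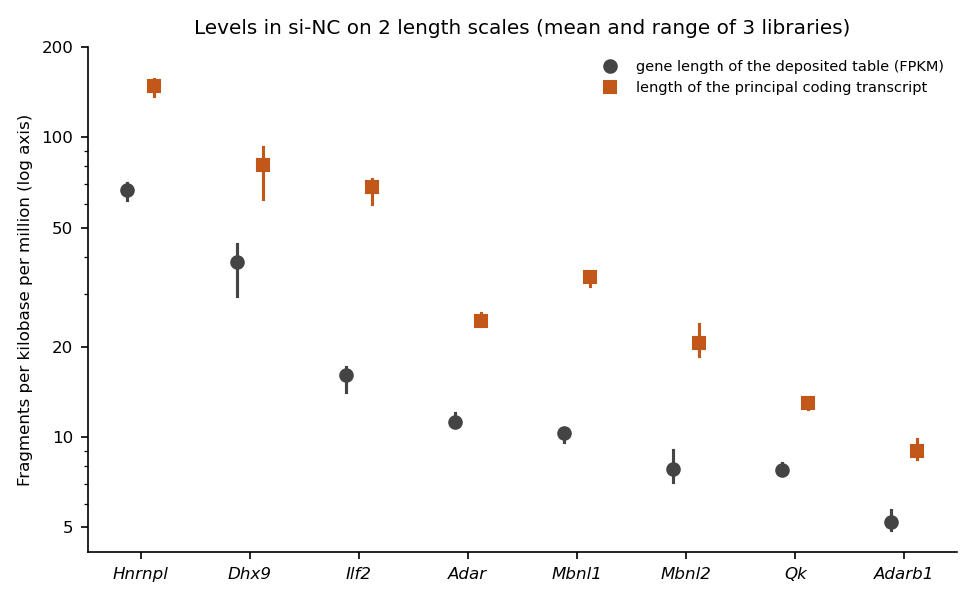
Levels of the 8 genes in the 3 si-NC libraries on a log axis, as FPKM with the deposited gene length (circles) and with the length of the longest principal coding transcript (squares), where lines span the lowest to the highest library. Ilf2 moves from 16.1 to 68.2 and Mbnl1 from 10.3 to 34.2, above Adar at 24.4.

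None of the 8 genes passed the test for a difference between si-circRtn4 and si-NC. The test was run with limma on log2(FPKM + 1) over the 12749 genes averaging 1 FPKM or more, and a gene was called at a Benjamini-Hochberg adjusted p under 0.05. By this rule 9.19% of all genes tested were called, 4.36% as higher and 4.82% as lower (556 and 615 genes). Rescaling FPKM to TPM gave 972 and 393 genes, and TPM without Gm23935, a short gene of very high FPKM, gave 592 and 538. At an unadjusted p under 0.05 the count was 1 member of 8 (Qk), against 25.9% of all genes tested, and limma-voom on the recovered reads called 0 members as well. The median absolute log2 fold change was 0.12 over the members and 0.14 over all genes tested, and 5 members lay below and 3 above 0. With replicate number as a block, which uses the pairing of libraries with the same number, 0 members were again called, against 19.0% of all genes tested (9.29% higher and 9.75% lower). The unadjusted p was under 0.05 for 3 members in that fit (Qk, Dhx9 and Ilf2), against 35.1% of all genes tested.

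**Figure D2:**
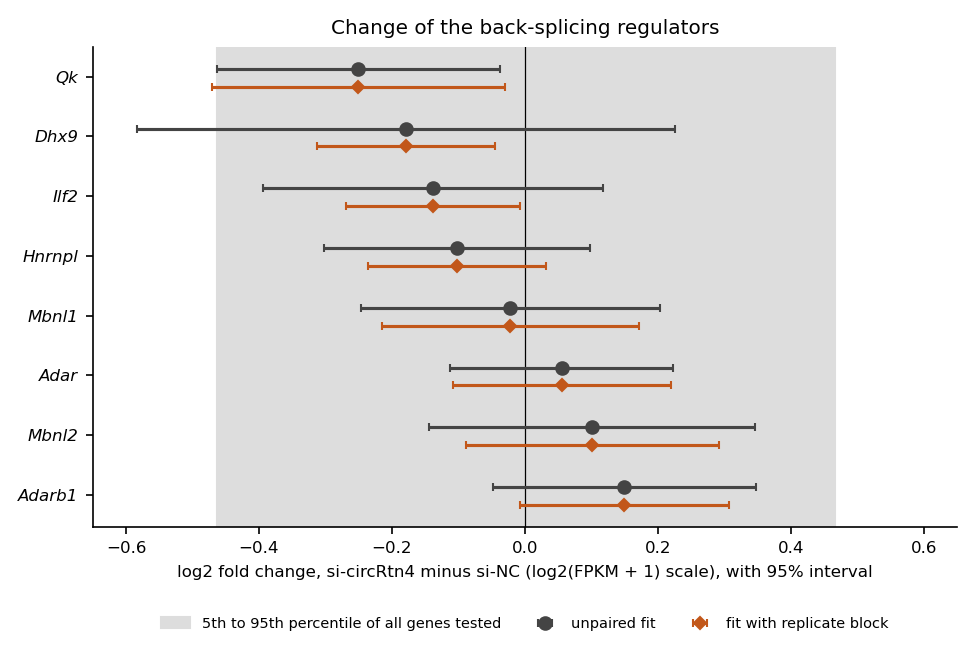
Log2 fold change of each gene, si-circRtn4 minus si-NC on the log2(FPKM + 1) scale, with its 95% interval in the unpaired fit (circles) and in the fit with replicate block (diamonds), where the grey band spans the 5th to the 95th percentile of all genes tested. Values run from -0.25 for Qk to 0.15 for Adarb1, all within the band.

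Among the genes that promote circle formation, Qk had the lowest fold change. Qk (ENSMUSG00000062078) lies at chr17:10202601-10319854 on the minus strand in GRCm38. Its si-NC libraries read 7.46, 8.20 and 7.74 FPKM and its si-circRtn4 libraries 7.25, 5.91 and 6.08 FPKM. Each si-circRtn4 library lay below each si-NC library, as in 15.5% of all genes tested (31.7% did not overlap in either direction), but si-circRtn4 replicate 1 was close to si-NC replicate 1. The means were 7.80 ± 0.373 and 6.41 ± 0.728 FPKM (SD, n = 3 each), which is 82.2% of the si-NC level. The log2 fold change of -0.25 (SE 0.091, 95% interval -0.46 to -0.038) had an adjusted p of 0.135 in limma, and the exact permutation p (two-sided) was 0.1, the smallest that 3 libraries against 3 allow. The adjusted p ranged over the alternatives from 0.0819, without si-circRtn4 replicate 1, to 0.346, after rescaling to TPM. Qk had 1259 to 1684 recovered reads in a library.

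The splicing factor gene Mbnl1 (ENSMUSG00000027763) lies at chr3:60472830-60629750 on the plus strand in GRCm38. Mbnl1 was at 9.65, 10.7 and 10.7 FPKM in si-NC and at 10.0, 9.10 and 11.5 FPKM in si-circRtn4. The si-circRtn4 libraries held both its lowest and its highest value. Its log2 fold change was -0.022 (95% interval -0.25 to 0.20, limma adjusted p = 0.920), and its sign turned under 3 alternatives. In 1 of these, TPM, it was 0.067 where the median of all genes tested was 0.090, which is -0.023 relative to that median.

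Its paralog Mbnl2 (ENSMUSG00000022139) lies at chr14:120275669-120431697 on the plus strand in GRCm38. Mbnl2 was at 7.40, 7.10 and 9.04 FPKM in si-NC and at 9.01, 7.68 and 8.72 FPKM in si-circRtn4. Both groups overlapped, and the log2 fold change was 0.10 (95% interval -0.14 to 0.35, limma adjusted p = 0.599). It was 0.20 without si-NC replicate 3 and 0.041 without si-NC replicate 2. The ratio of Mbnl2 to Mbnl1 within a library was 0.759 ± 0.0888 in si-NC and 0.834 ± 0.0726 in si-circRtn4 (SD, n = 3 each, two-sided exact permutation test, p = 0.4). Mbnl3, the remaining muscleblind gene, had between 0 and 4 recovered reads per library and was not tested.

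Ilf2 (ENSMUSG00000001016) lies at chr3:90476126-90488379 on the plus strand in GRCm38. Ilf2 was at 14.2, 17.1 and 17.1 FPKM in si-NC and at 12.7, 15.3 and 15.7 FPKM in si-circRtn4. The groups overlapped, with replicate 1 the lowest library of each, while the si-circRtn4 library lay below the si-NC library of the same number in 3 of 3 pairs, as in 28.3% of all genes tested. A common direction in 3 of 3 pairs was seen in 5 members (Qk, Dhx9, Ilf2, Hnrnpl and Adarb1) and in 56.7% of all genes tested. The log2 fold change was -0.14 (SE 0.11, 95% interval -0.39 to 0.12, limma adjusted p = 0.482). Leaving out si-NC replicate 1 gave -0.22, and leaving out si-circRtn4 replicate 1 gave -0.049. With the replicate block the standard error was 0.053 and the adjusted p was 0.126.

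Hnrnpl (ENSMUSG00000015165) lies at chr7:28808541-28822266 on the plus strand in GRCm38. Hnrnpl was at 61.8, 67.7 and 70.6 FPKM in si-NC and at 58.9, 60.2 and 67.3 FPKM in si-circRtn4. Its si-circRtn4 library was again below its si-NC library in 3 of 3 pairs, and the groups overlapped. The log2 fold change was -0.10 (SE 0.086, 95% interval -0.30 to 0.098, limma adjusted p = 0.509). It was -0.16 without si-circRtn4 replicate 3 and -0.061 without si-NC replicate 3. Its paralog Hnrnpll was at 9.67 ± 1.23 and 10.1 ± 0.711 FPKM (SD, n = 3 each, limma adjusted p = 0.759). The ratio of Hnrnpll to Hnrnpl was between 0.134 and 0.150 in si-NC and between 0.156 and 0.175 in si-circRtn4, so that the groups did not overlap. The log2 difference of this ratio was 0.17 (SE 0.076), with p = 0.1 in a two-sided exact permutation test, the smallest value possible here, and an adjusted p of 0.4 over the 6 ratios tested.

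Among the genes whose proteins edit or unwind paired RNA, Dhx9 varied the most between libraries. Dhx9 (ENSMUSG00000042699) lies at chr1:153455758-153487660 on the minus strand in GRCm38. The si-NC libraries read 29.7, 41.6 and 44.2 FPKM and the si-circRtn4 libraries 27.4, 35.5 and 38.3 FPKM. Replicate 1 was low in both groups, by more than the groups differed, and the si-circRtn4 library was the lower of the same number in 3 of 3 pairs. The log2 fold change was -0.18 (SE 0.17, 95% interval -0.58 to 0.23, limma adjusted p = 0.573). With the replicate block the standard error was 0.054, the 95% interval was -0.31 to -0.045 and the adjusted p was 0.0736, the lowest of any member under any alternative. Leaving out 1 library at a time moved the log2 fold change to -0.35 when it was si-NC replicate 1 and to -0.041 when it was si-circRtn4 replicate 1. Dhx9 had 3745 to 5939 recovered reads in a library, a counting error of 1.41% against a spread of 20.1% between the si-NC libraries.

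Adar (ENSMUSG00000027951) lies at chr3:89715022-89753446 on the plus strand in GRCm38. Adar was at 10.97, 10.8 and 12.01 FPKM in si-NC and at 12.01, 11.8 and 11.4 FPKM in si-circRtn4. The groups overlapped, and the log2 fold change was 0.056 (SE 0.072, 95% interval -0.11 to 0.22, limma adjusted p = 0.685). It was 0.099 without si-NC replicate 3 and 0.030 without si-NC replicate 2. Adar shares 1365 exon bases with Chrnb2, a nicotinic receptor gene on the opposite strand at 9.48 ± 0.823 and 8.23 ± 0.516 FPKM (SD, n = 3 each). Whether the counting used strand is not given in the sources used here, so reads of this stretch cannot be told apart. Ilf2 shares 354 exon bases with Snapin on the opposite strand, which was at 12.9 ± 1.21 and 12.5 ± 0.963 FPKM (SD, n = 3 each).

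One form of ADAR is induced by interferon, and so a list of 20 other interferon-induced genes was set beside it. Of these, 9 were tested and 1 was called, against 9.19% of all genes tested, with a median log2 fold change of -0.014 over the list. The limma unadjusted p was under 0.05 for 3 of the 9 (2 higher and 1 lower), against 25.9% of all genes tested. The called gene was Isg15, a ubiquitin-like modifier, at 6.05, 5.60 and 5.29 FPKM in si-NC and at 28.4, 37.4 and 10.7 FPKM in si-circRtn4. Its log2 fold change was 1.83 (SE 0.38, limma adjusted p = 0.0282, and 0.00178 to 0.112 over the alternatives). The call was lost without si-NC replicate 1, 2 or 3 or without si-circRtn4 replicate 1 or 2, with log2 fold changes of 1.48 to 2.34 over the alternatives. Bst2, a membrane protein that tethers viruses, was at 45.4 ± 2.31 and 37.2 ± 3.20 FPKM (SD, n = 3 each, limma adjusted p = 0.0859). The groups of Bst2 did not overlap, with si-circRtn4 lower, as in 15.5% of all genes tested. With the replicate block Bst2 was called as lower (log2 fold change -0.28, limma adjusted p = 0.0386), as were 9.75% of all genes tested. Stat2, which carries the interferon signal, was at 7.92 ± 1.09 and 7.84 FPKM (limma adjusted p = 0.963).

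Adarb1 was the least abundant member and had the highest fold change. Adarb1 (ENSMUSG00000020262) lies at chr10:77290726-77418270 on the minus strand in GRCm38. The si-NC libraries read 5.72, 4.91 and 5.07 FPKM and the si-circRtn4 libraries 6.29, 5.68 and 5.75 FPKM. The si-circRtn4 library was the higher of the same number in 3 of 3 pairs, as in 28.4% of all genes tested, whereas the groups overlapped through si-NC replicate 1. The means were 5.23 ± 0.428 and 5.91 ± 0.335 FPKM (SD, n = 3 each). On the log2 scale this was a difference of 0.15 (SE 0.085, 95% interval -0.049 to 0.35, limma adjusted p = 0.321). The ratio of Adarb1 to Adar was 0.466 ± 0.0508 in si-NC and 0.503 ± 0.0223 in si-circRtn4 (SD, n = 3 each, two-sided exact permutation test, p = 0.3). The ratio of Dhx9 to Adar was 3.41 ± 0.613 and 2.88 ± 0.548, and that of Qk to Hnrnpl was 0.117 ± 0.00653 and 0.104 ± 0.0171 (SD, n = 3 each), each with p = 0.4 in the same exact permutation test. All 6 ratios had an adjusted p of 0.4. Adarb2, the remaining ADAR paralog, had at most 2 recovered reads per library and was not tested.

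**Figure D3:**
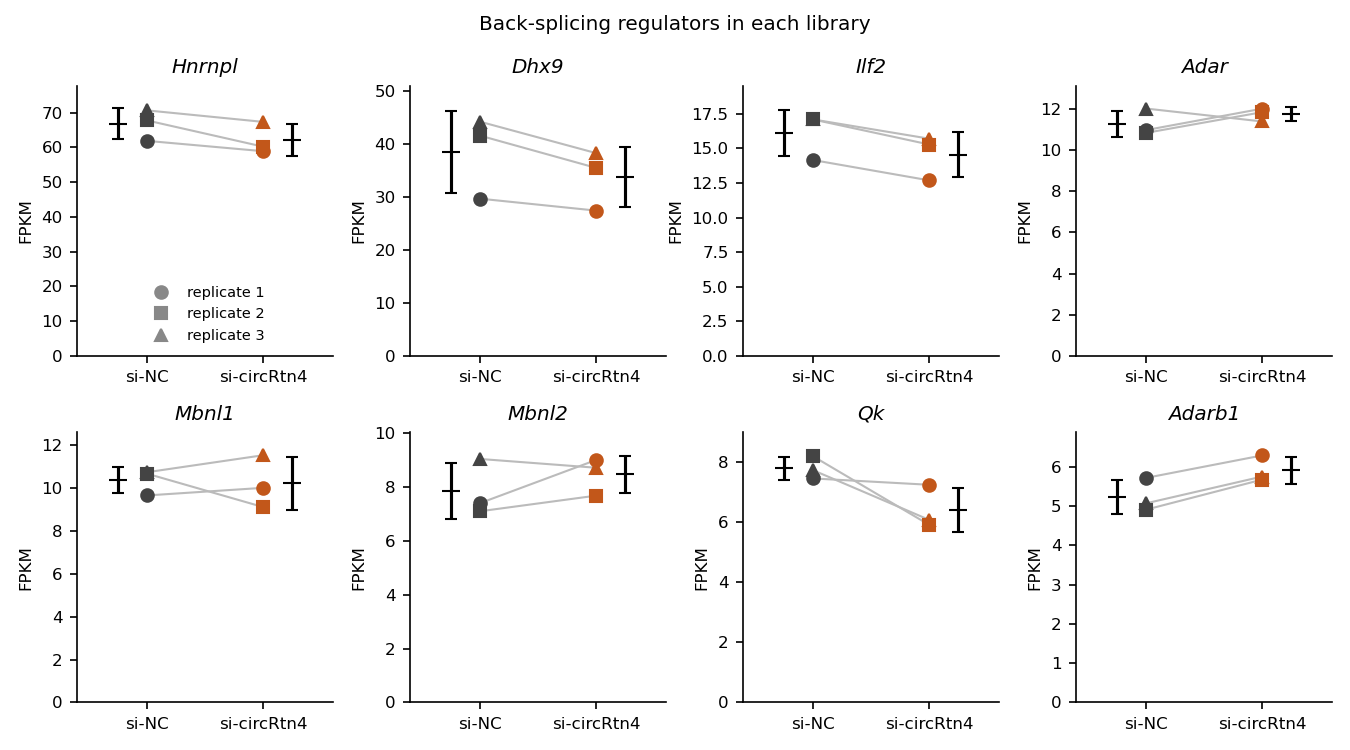
FPKM of each gene in the 3 si-NC and 3 si-circRtn4 libraries, where lines join libraries of the same replicate number and bars beside the points give the mean and SD. The lines of Hnrnpl, Dhx9, Ilf2 and Qk all go down and those of Adarb1 all go up, and only the 2 groups of Qk do not overlap.

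Libraries with the same replicate number resembled each other more in some of these genes than in others. Averaged over both groups, the replicate numbers of Dhx9 spanned 0.51 on the log2(FPKM + 1) scale, wider than in 92.5% of all genes tested, whereas those of Adar spanned 0.043 and those of Qk 0.087. The replicate numbers lay further apart than the groups for 6 of the 8 members and for 60.6% of all genes tested. Replicate 1 was the lowest library in si-NC and in si-circRtn4 for Dhx9, Ilf2 and Hnrnpl, and for 22.9% of all genes tested. The same held for 16 of 23 core splicing genes and for 7 of 10 tested relatives and partners of the members. It held for 10 of 18 other RNA-binding proteins, 8 of 17 export and decay genes and 4 of 8 neuroblastoma and neuronal markers. The count was 3 of 16 for host genes of circular RNAs, 0 of 9 for interferon-induced genes and 0 of 1 for markers of other cell types. The cause of this pattern was not tested.

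**Figure D4:**
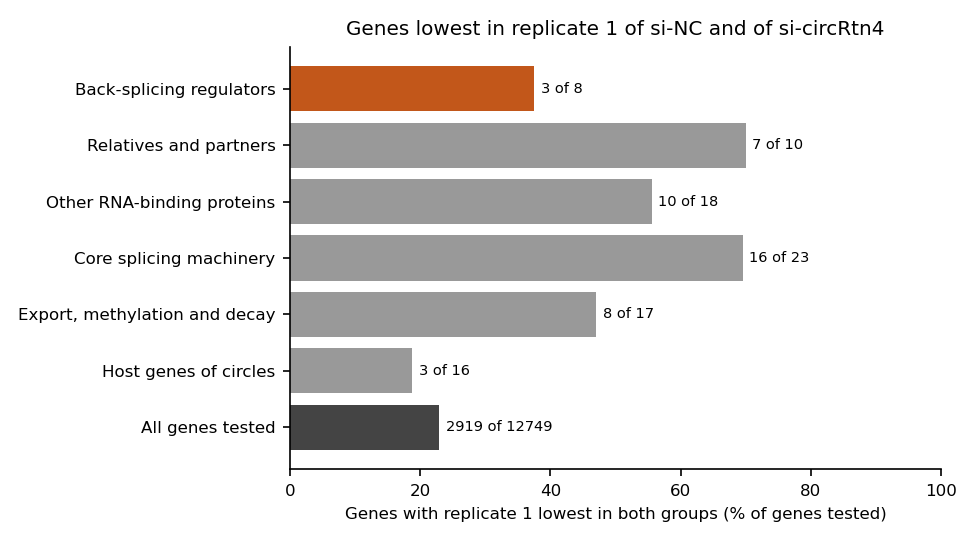
Share of tested genes, in percent, whose lowest si-NC library and lowest si-circRtn4 library are both replicate 1. Bars stand for the members, their relatives and partners, other RNA-binding proteins, core splicing, export and decay genes, host genes and all genes tested. The share is 69.6% for the core splicing machinery (16 of 23) and 22.9% for all genes tested.

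In 4 lists of the wider machinery of splicing and of circular RNA, 0 genes were called without the replicate block, against 9.19% of all genes tested. With the block the count was 0 or 1 in each list, against 19.0% of all genes tested. Of 16 relatives and partners of the members (such as the KH-domain and polypyrimidine tract proteins), 10 were tested and 0 were called. Their log2 fold changes ran from -0.12 for Ptbp1, a splicing repressor at 78.5 and 71.9 FPKM, to 0.20 for Strbp, a protein that binds paired RNA, which was named after its value had been seen. Sf1, which binds the branch point, was at 50.2 and 48.7 FPKM. Their median was 0.020, against 0.0020 for all genes tested. At an unadjusted p under 0.05 the count was 1 of 10, against 25.9% of all genes tested.

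Among 21 other RNA-binding proteins with a reported part in back-splicing, 18 were tested and 0 were called, and 0 had an unadjusted p under 0.05. The median log2 fold change was -0.034, with 13 genes below and 5 above 0. The most abundant were Hnrnpa1 at 310.1 ± 28.3 and 283 FPKM and Hnrnpa2b1 at 147 ± 11.8 and 133 FPKM (means of si-NC and si-circRtn4, SD of si-NC, n = 3), splicing factors of the hnRNP A family. Sfpq, a paraspeckle protein, was the only gene of this list called with the replicate block (log2 fold change -0.21, limma adjusted p = 0.0455, and 0.217 without the block), and was named after its value had been seen.

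Of 23 core splicing genes, all were tested and 0 were called. Their median log2 fold change was -0.034, with 16 genes below and 7 above 0, and 2 had an unadjusted p under 0.05. U2af1, which reads the 3′ splice site, was at 91.6 ± 6.03 and 84.6 FPKM, and Snrnp70, of the particle that reads the 5′ splice site, was at 67.3 ± 4.30 and 64.8 FPKM. With the replicate block, Prpf18 was called (log2 fold change -0.26, limma adjusted p = 0.0355, and 0.114 without the block), again named after its value had been seen.

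Of 20 genes for nuclear export, methylation and decay of circular RNA, 1 (Ddx39a) was not matched by its symbol, 17 were tested and 0 were called or had an unadjusted p under 0.05. The median was 0.00098. Ddx39b, a helicase of nuclear export, was at 102 ± 12.3 and 104 FPKM, and Alkbh5, which removes a methyl mark from RNA, was at 61.0 ± 3.48 and 54.6 FPKM. With the replicate block, Dis3, an exosome nuclease, was called as higher (log2 fold change 0.25, limma adjusted p = 0.0487, and 0.195 without the block), also named after its value had been seen.

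**Figure D5:**
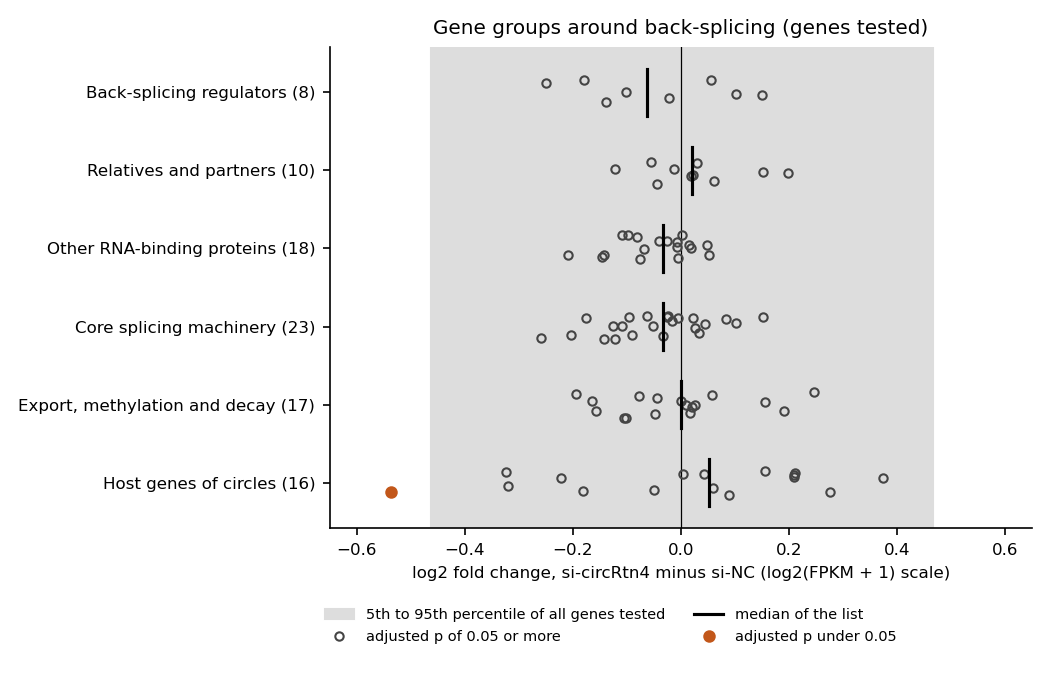
Log2 fold change, si-circRtn4 minus si-NC on the log2(FPKM + 1) scale, of every tested gene in 6 lists, where bars mark the median of a list and filled points are genes with an adjusted p under 0.05. Among 8, 10, 18, 23, 17 and 16 genes tested, the only filled point is Hipk2 at -0.54.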

How the data were processed

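RNA was sequenced from N2a cells, 3 si-NC and 3 si-circRtn4 libraries, grouped by the sample titles. The authors deposited FPKM per gene with gene lengths and coordinates; 6 further columns of per-sample values were not used. The submitters' processing notes name Bowtie 0.12.2 and the builds mm8 and mm9, with no role given. However, 98.3% of the 54532 listed genes have the same start and end in GENCODE M21 (GRCm38), and 98.0% of those found there have the union of annotated exons as length. The counting tool is not given in the sources used here. FPKM times length gave whole reads (within 0.01) for 100% of the values above 0, so reads could be recovered.

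The deposited FPKM, after adding 1 and taking log2, went into limma 3.58.1 under R 4.3.3 (lmFit, eBayes with a trend) over genes averaging 1 FPKM or more, with Benjamini-Hochberg adjustment over all of them. The pipeline was tested on simulated data with larger fold changes than those of the members and no effect of replicate number. That test therefore cannot say whether changes as small as those of the members would be called. Single values had two-sided exact permutation tests. Replicate numbers are shared between groups. Deviations from the group means correlated at 0.190 to 0.331 for libraries of the same number and at -0.228 to 0.00913 otherwise. Deviations within a group sum to 0, so positive values for the same number push the others down, and these ranges are not independent. The numbers were treated as pairs in the fit with a replicate block. Seed sites were sought per gene in its longest annotated 3′ UTR, if 20 bases or longer. The 8 genes and the 8 other lists were chosen with earlier results of these data known. Named were all members, Rtn4, Chd5, Mbnl3, Adarb2, Hnrnpll, up to 4 called genes per list of largest fold change (or, with fewer than 2 called, also the 2 of highest mean) and the 3 genes most like Qk in their pattern. Named outside it were cell type markers, genes overlapping members, Gm23935, and genes chosen after their values were seen. Some genes under this rule, and 1 of the 6 ratios, are not reported here. Python 3.11.15 with pandas 2.3.3, scipy 1.17.1 and matplotlib 3.10.9 was used.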

Additional observations from a re-analysis of the deposited data

How the results depend on the processing

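The members gave 0 calls under each of the 15 alternatives, and 117 of their 120 fold changes kept their sign, the exceptions being Mbnl1 at 0.067 as TPM and at 0.0030 and 0.050 without si-NC replicate 3 or si-circRtn4 replicate 2. Leaving out 1 library gave Mbnl1 values from -0.10 to 0.050. TPM raises the median of all genes tested to 0.090. The 6 ratios kept their sign. Their exact permutation tests cannot give a p under 0.1, so no ratio could have passed at 0.05. With the replicate block, 1185 genes were called higher and 1243 lower instead of 556 and 615. As TPM the numbers were 972 and 393, and as TPM without Gm23935 they were 592 and 538. With all detected genes they were 210 and 261, and limma-voom on recovered reads called 902 higher. Leaving out 1 library gave 163 to 407 higher and 217 to 419 lower genes, with the fewest without si-NC replicate 2.

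Of the other lists, the replicate block called 1 gene each among RNA-binding proteins, core splicing and export and decay, 5 host genes, 2 interferon-induced genes and 3 neuroblastoma and neuronal markers (Dbh and Phox2a lower, Mycn higher), without changing any call of a member. Host genes called numbered 2 with limma-voom and 0 with all detected genes, with TPM without Gm23935 (a short gene holding 13.5% to 20.7% of the FPKM sum) and with FPKM rescaled to recovered reads, which was chosen after seeing the data. All detected genes left 0 interferon-induced genes and 1 marker gene called. Without 1 library, 0 to 1 host genes, 0 to 2 interferon-induced genes and 1 to 2 markers were called, whereas TPM, TPM without Gm23935, quantile normalization, limma-voom and rescaled FPKM each called 3 markers. Levels by transcript length were also added after seeing the data. With 3 libraries a group, the unpaired 95% intervals of 7 of the 8 members include 0.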

Other observations

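Genes known to give rise to abundant circular RNAs were also listed, since their RNA is what the back-splicing regulators act on. Of 18 such host genes, 16 were tested and 1 was called (9.19% of all genes tested were), with a median log2 fold change of 0.051 (10 above and 6 below 0). The limma unadjusted p was under 0.05 for 6 of the 16 (4 higher and 2 lower), against 25.9% of all genes tested. The called gene was Hipk2, a nuclear kinase gene, at 11.95, 12.7 and 9.51 FPKM in si-NC and at 8.27, 7.45 and 6.79 FPKM in si-circRtn4. Its log2 fold change was -0.54 (SE 0.12, limma adjusted p = 0.0326, and 0.0101 to 0.109 over the alternatives), with log2 fold changes of -0.65 to -0.46, and the call was lost without si-NC replicate 1 or 2 and without si-circRtn4 replicate 1, 2 or 3. Camsap1, which binds microtubule ends, was at 20.2 ± 0.414 and 22.7 ± 0.966 FPKM (SD, n = 3 each, limma adjusted p = 0.196). With the replicate block, which called 19.0% of all genes tested, Rtn4 (-0.22), Foxo3 (-0.32), Dlgap4 (0.37) and Fbxw7 (0.28) were called beside Hipk2, and these were named after their values had been seen. How much of any host gene's value is circular RNA is not known from these data.

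No member passed the test, so the genes most like the member of smallest p, Qk, were sought among 5637 genes averaging 10 FPKM or more. Over the 6 libraries, Med23 (Pearson r = 0.996, a subunit of the Mediator complex), Gabpa (r = 0.995, an ETS transcription factor) and mt-Nd4 (r = 0.976, a complex I subunit encoded in mitochondrial DNA) were the closest on the log2(FPKM + 1) scale. These values of r are high by selection, as the highest among 5637 genes, and were not tested. Med23 was at 15.9, 16.8 and 16.4 FPKM in si-NC and at 15.3, 13.5 and 13.8 FPKM in si-circRtn4. Its si-circRtn4 replicate 1 lay nearest to the si-NC libraries, as for Qk, which follows from the choice by r. The points share the scaling of their libraries.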
